A study of Mus musculus with 12 samples.

Results

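Pparg, Cd36, Mogat1, Vldlr, Fabp1, Fabp2, Fabp4, Slc27a2 and Slc27a5 are 9 genes of fatty acid uptake, fatty acid binding and PPAR-gamma driven fat storage, and their RNA levels were examined in mouse liver. The genes were taken by symbol from GENCODE M21 and matched by Ensembl identifier, giving 9 of the 47729 genes counted in the series. All 9 passed the filter on low counts, among 16823 genes tested. The question was how their expression differed between healthy livers and livers of the STAM model of non-alcoholic steatohepatitis (NASH), and whether it differed between STAM mice dosed with vehicle or with the BET inhibitor I-BET151.

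Liver RNA was sequenced from 12 male C57BL/6 mice, 4 in each of 3 groups. Naive_vehicle mice were WT animals on a normal diet that received vehicle. STAM_vehicle and STAM_treated mice were injected with streptozotocin (STZ), which damages the insulin-producing beta cells, on day 2 of life, and were fed a high-fat diet from week 4. STAM_vehicle mice then received vehicle, and STAM_treated mice received I-BET151 at 10 mg/kg, by mouth once a day from week 6 to week 9, when livers were taken. STZ and the high-fat diet were always given together, so their parts cannot be told apart. The compound was suspended in another carrier than the one given to the vehicle mice, and the effect of that carrier cannot be told apart from that of the compound. The libraries held 34711229 to 53365596 counts each.

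Fatty acids reach the hepatocyte from the blood, either as free acids that cross the membrane with the help of transporters such as CD36 and the SLC27 (FATP) proteins, or inside lipoproteins bound by receptors such as the VLDL receptor. Inside the cell, small fatty acid binding proteins (FABPs) carry them to oxidation or to esterification, the chemical step that builds triglyceride. PPAR-gamma is a nuclear receptor that binds DNA with RXR and turns on fat storage genes. It is abundant in adipocytes and scarce in healthy liver, where PPAR-alpha, the receptor of fatty acid oxidation, predominates, and its rise in fatty liver is well known. BET proteins read acetylated histones and help to recruit the transcription machinery, and I-BET151 blocks that reading.

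The library labelled STAM_treated 3 stood apart from the other 11. Its 10 highest genes took 7.95% of its counts against 13.5% to 18.0% elsewhere, its mitochondrial genes took 2.71% against 4.51% to 7.30%, and its TMM scaling factor was 1.61 against 0.770 to 1.11. Its summed level of 10 hepatocyte markers was 26276 CPM, the count scaled to library size, where the other STAM mice had 69684 to 122232 and the naive mice 120599 to 146480. Its summed level of 7 RNAs listed as nuclear-retained, mostly Neat1 (3973 CPM) and Malat1 (776 CPM), was 5016 CPM, above that of the other mice. This sum was 915 to 1330 CPM in naive mice and 1431 to 2242 CPM in STAM_vehicle mice, with no overlap, and the median log2 difference of the 6 tested was 0.60 beside 0.0089 over all genes. Of the 6, Snhg11 was called higher in edgeR (log2 1.31), and only Gas5 had an estimate below 0 (log2 -0.13). The part of these RNAs in the values of the 9 genes was not tested. In the study, 1 treated STAM sample, which is not identified, was excluded because its gene counts were low. All 12 libraries were kept here, and results that rest on STAM_treated 3 are given with and without it.

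PPAR-gamma and its partner RXR recognise a pair of half-sites in the same orientation with 1 base between them (DR1), each half-site resembling AGGTCA. Windows of 300 bases, from 250 before to 50 after the transcription start, were taken from RefSeq on GRCm38.p6, and 7 of the 9 genes had at least 1 window, 10 windows in all. Fabp4 and Slc27a5 had none. A DR1 with at most 2 mismatches over the 12 half-site bases, on either strand, was found in 3 of these windows, those of Cd36, Mogat1 and Fabp1. Of all 32851 windows of this length, 3.86% held one. The sequences around these 3 matches, all that were found, are shown. Each is written 5′ to 3′ on the strand of its gene, with the match in capitals.
Fabp1 (chr6:71199629-71199826, plus strand): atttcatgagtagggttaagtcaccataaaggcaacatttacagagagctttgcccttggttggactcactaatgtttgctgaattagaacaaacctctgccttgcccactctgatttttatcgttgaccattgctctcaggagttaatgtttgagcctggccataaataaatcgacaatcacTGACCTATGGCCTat
Cd36 (chr5:17835897-17836146, minus strand): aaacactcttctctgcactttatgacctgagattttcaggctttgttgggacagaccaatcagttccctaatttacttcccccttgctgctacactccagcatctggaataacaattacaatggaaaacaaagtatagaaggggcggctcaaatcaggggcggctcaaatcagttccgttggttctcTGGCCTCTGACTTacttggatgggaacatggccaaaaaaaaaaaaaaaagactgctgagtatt
Mogat1 (chr1:78511001-78511029, plus strand): cagaattcAGGTAAAAAGTCAggctggtg
In Fabp1 the match lay on the opposite strand, 67 to 55 bases before the RefSeq start, and had 1 mismatch. In Cd36 it lay on the opposite strand, 63 to 51 bases before the start, with 2 mismatches, in a window that GENCODE M21 places inside the gene and outside its exons. In Mogat1 it lay on the gene's own strand, 51 to 39 bases before the start, with 2 mismatches, in the first exon of 1 annotated transcript. No match was found in the 3 windows of Pparg, the 2 of Vldlr or those of Fabp2 and Slc27a2. A match describes these letters only, and binding was not measured.

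The 9 genes spanned a wide range of levels. Compared per kilobase of the longest coding transcript, Fabp1, the main fatty acid carrier of the hepatocyte, was highest in naive liver at 3856 ± 1011 CPM per kb (SD, n = 4). Slc27a2 followed at 869 ± 113 CPM per kb and Slc27a5 at 417 ± 38.2 CPM per kb, and the ranges of these 3 genes did not overlap. Fabp2 stood at 77.4 ± 11.0 CPM per kb. Cd36 at 17.8 ± 2.63 and Fabp4 at 12.5 ± 3.01 CPM per kb overlapped each other. Pparg stood at 2.96 ± 0.218 CPM per kb, above Mogat1 at 0.613 ± 0.180 and Vldlr at 0.399 ± 0.177 CPM per kb, which overlapped each other. In STAM_vehicle liver the 3 highest genes kept their order, while Cd36, at 61.1 ± 9.47 CPM per kb, had a mean above that of Fabp2, at 56.3 ± 13.8, with overlapping ranges. In STAM_treated liver Fabp4 had the fourth highest mean, 65.7 ± 39.0 CPM per kb, and overlapped Cd36 at 64.6 ± 27.7 CPM per kb.

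**Figure D1:**
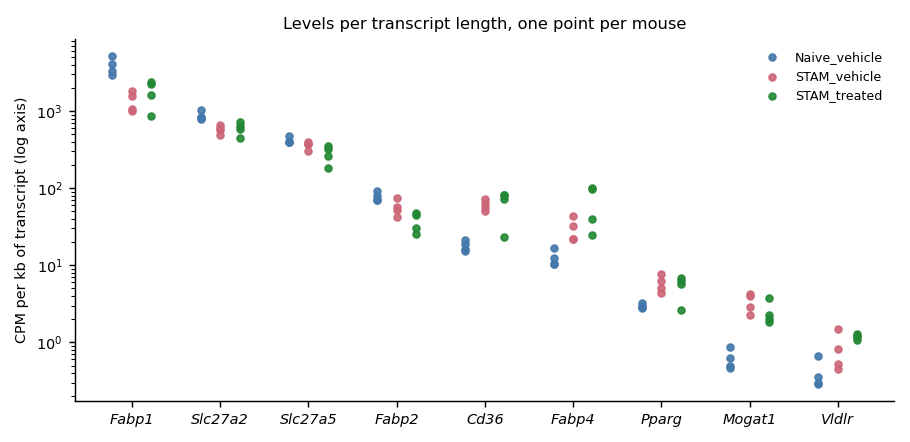
Level of each gene per kilobase of its longest coding transcript (CPM per kb, log axis) in each of the 12 mice, with the genes ordered by their naive mean. Fabp1, Slc27a2 and Slc27a5 were the 3 highest in every group, and Mogat1 and Vldlr had the lowest means.

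In STAM_vehicle livers, 4 of the 9 genes differed significantly from naive livers. Pparg, Cd36 and Mogat1 rose and Fabp1 fell, at an adjusted p of at most 0.05 (edgeR's quasi-likelihood test, Benjamini-Hochberg adjustment over 16823 genes). Over all genes tested, 7.10% were called in this comparison, 5.72% higher and 1.38% lower. The members' median log2 fold change was 0.97, beside 0.0089 over all genes tested. For 7 of the 9 genes the groups did not overlap, as was the case for 26.4% of all genes tested. DESeq2 called 7 of the 9, with Vldlr and Fabp4 higher and Slc27a2 lower in addition, among 1891 called of 19232 genes tested. Since these are whole tissue samples, fewer cells of a type and less RNA per cell cannot be told apart.

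**Figure D2:**
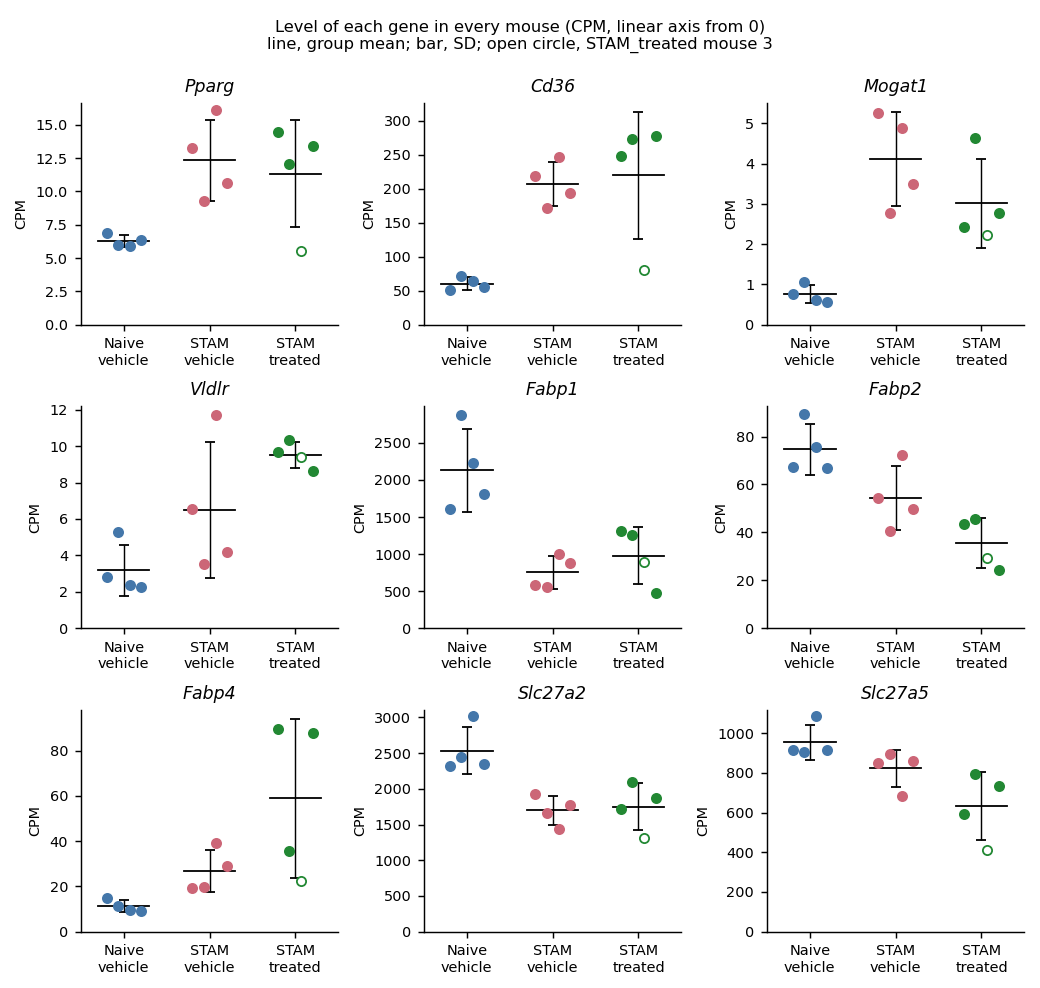
CPM of each gene in every mouse (linear axis from 0), by group, with the group mean as a line, the SD as a bar, and the library labelled STAM_treated 3 as an open circle. Cd36 and Mogat1 were above every naive mouse in all 8 STAM mice, Fabp1 was below every naive mouse in all 8, and the open circle is the lowest of its group for Pparg, Cd36, Mogat1, Fabp4, Slc27a2 and Slc27a5.

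Pparg, the gene of the receptor itself (ENSMUSG00000000440, chr6:115360951-115490399, plus strand, GRCm38), was at 6.92, 6.01, 5.87 and 6.33 CPM in the naive mice. It was at 13.3, 9.29, 16.1 and 10.6 CPM in the STAM_vehicle mice, all above the naive range. The increase was 1.96-fold (log2 0.97, SE 0.26, edgeR adjusted p = 0.0368). In the STAM_treated mice Pparg was at 14.4, 12.05, 5.50 and 13.4 CPM, so 3 of these mice lay within the STAM_vehicle range, and STAM_treated 3 lay below every naive mouse. Relative to naive mice it was 1.80-fold higher (log2 0.85, SE 0.26, edgeR adjusted p = 0.0396), and the difference was log2 1.07 (edgeR adjusted p = 0.00121) when STAM_treated 3 was left out. With 1 mouse left out at a time, the call against naive mice was kept in 5 of 12 fits for STAM_vehicle and in 3 of 12 for STAM_treated. The edgeR adjusted p lay between 0.00186 and 0.132 and between 0.00121 and 0.107. Most of the fits that kept a call left out a mouse of the third group, outside the comparison. Among fits without a compared mouse, the STAM_vehicle call was kept only without STAM_vehicle 2. The STAM_treated call was kept only without STAM_treated 3. Transcripts from the separate Pparg promoters share most exons and were not told apart in these gene counts.

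Cd36, which codes for a membrane protein that helps long-chain fatty acids into cells (ENSMUSG00000002944, chr5:17781690-17888801, minus strand), was at 51.3, 71.5, 63.7 and 55.5 CPM in naive mice. In STAM_vehicle mice it was at 219, 172, 246 and 194 CPM. Every STAM_vehicle mouse thus had more Cd36 RNA than any naive mouse, with a 3.43-fold increase (log2 1.78, SE 0.31, edgeR adjusted p = 0.00413). In STAM_treated mice it was at 248, 273, 79.9 and 277 CPM. The 3 high values exceeded every STAM_vehicle mouse, while STAM_treated 3 lay just above the naive range. Relative to naive mice the increase was 3.63-fold (log2 1.86, SE 0.31, edgeR adjusted p = 0.00220), and it stayed called in all 12 fits that left out 1 mouse, as did the STAM_vehicle increase.

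Mogat1 codes for a monoacylglycerol acyltransferase, an enzyme that builds diacylglycerol for triglyceride synthesis (ENSMUSG00000012187, chr1:78510991-78538173, plus strand). It was near the lower end of detection in naive mice, at 0.766, 1.06, 0.610 and 0.575 CPM, or 20 to 40 counts. STAM_vehicle mice had 5.26, 2.78, 4.89 and 3.50 CPM. This 5.42-fold increase was the largest of the 9 genes (log2 2.44, SE 0.31, edgeR adjusted p = 0.000653). STAM_treated mice had 2.43, 4.64, 2.22 and 2.78 CPM, of which 1 lay within the STAM_vehicle range, 1 at its lower end and 2 below it, and all were above the naive range. The increase over naive mice was 3.96-fold there (log2 1.99, SE 0.31, edgeR adjusted p = 0.00151). Both increases stayed called in all 12 fits that left out 1 mouse. Exons of BC035947, on the opposite strand, overlap those of Mogat1, and BC035947 had 2 to 79 counts per mouse.

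Vldlr codes for the receptor of triglyceride-rich lipoproteins (ENSMUSG00000024924, chr19:27216484-27254231, plus strand). Its naive values were 2.79, 5.27, 2.38 and 2.27 CPM, and its STAM_vehicle values were 6.56, 3.54, 11.7 and 4.16 CPM. The groups overlapped, and the 2.04-fold difference did not pass the threshold (log2 1.03, SE 0.35, edgeR adjusted p = 0.0960). DESeq2 on the same mice called this difference (log2 1.01, DESeq2 adjusted p = 0.0440). Without Naive_vehicle 2, the highest naive mouse, it was called at an edgeR adjusted p of 0.0495. In STAM_treated mice Vldlr was at 9.66, 10.3, 9.43 and 8.62 CPM. These 4 values were close together and above all naive mice, and the 2.99-fold increase was significant (log2 1.58, SE 0.35, edgeR adjusted p = 0.0111) in all 12 fits that left out 1 mouse.

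Fabp1 (ENSMUSG00000054422, chr6:71199827-71205023, plus strand) was the only member called lower in STAM_vehicle mice in edgeR with all 12 mice. Its naive levels were 1609.5, 2876, 2229 and 1814 CPM, and its STAM_vehicle levels were 581, 550.2, 1004 and 878 CPM. All 4 STAM_vehicle mice were below every naive mouse, a 2.83-fold reduction (log2 -1.50, SE 0.33, edgeR adjusted p = 0.0159). The call was lost when Naive_vehicle 2 or STAM_vehicle 2 was left out, with an edgeR adjusted p of at most 0.0586. In STAM_treated mice Fabp1 was at 1305, 1256, 887 and 472 CPM, spread from below to above the STAM_vehicle range and still under every naive mouse. The reduction relative to naive mice was 2.18-fold (log2 -1.12, SE 0.33, edgeR adjusted p = 0.0354) and was called in 8 of 12 fits that left out 1 mouse. The fits that lost this call left out Naive_vehicle 2, 3 or 4 or STAM_treated 4, all mice of the comparison.

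Fabp2, the intestinal form of the carrier (ENSMUSG00000023057, chr3:122895072-122899506, plus strand), was at 67.1, 89.5, 75.6 and 66.8 CPM in naive mice and at 54.3, 40.7, 72.4 and 49.8 CPM in STAM_vehicle mice. STAM_vehicle 3 lay within the naive range, and the difference was not significant (log2 -0.46, SE 0.22, edgeR adjusted p = 0.228). STAM_treated mice had 43.5, 45.4, 29.1 and 24.2 CPM, all below the naive range. This 2.10-fold reduction was significant (log2 -1.07, SE 0.22, edgeR adjusted p = 0.00673) in all 12 fits that left out 1 mouse. Of 8 enterocyte markers, 2 had enough counts to be tested, Apoa4 and Vil1, and 0 were called in any comparison in edgeR. Vil1, an actin-binding protein of the brush border, had log2 0.91 in STAM_vehicle against naive mice (edgeR unadjusted p = 0.034). The keratin gene Krt20, too low to be tested, was at 0 in the 4 naive mice and at 0.0230 to 0.271 CPM in all 8 STAM mice. The enterocyte transcription factor genes Cdx1 and Cdx2 and the brush border gene Sis were at or near 0 CPM in all mice, with 0.0424 CPM as the highest value among the 3. The summed level of the 8, made up almost wholly of Apoa4, which liver also expresses, was 984 to 1948 CPM in naive, 1277 to 2639 CPM in STAM_vehicle and 503 to 1450 CPM in STAM_treated mice. The part of these markers in the Fabp2 values was not tested.

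Fabp4, the carrier of adipocytes, macrophages and capillary endothelium (ENSMUSG00000062515, chr3:10204088-10208576, minus strand), was at 15.1, 11.2, 9.42 and 9.32 CPM in naive mice. In STAM_vehicle mice it was at 19.3, 19.8, 39.1 and 28.9 CPM. Although the groups did not overlap, the 2.38-fold difference did not pass the threshold (log2 1.25, SE 0.39, edgeR adjusted p = 0.0706). DESeq2 on the same mice called this difference (log2 1.23, DESeq2 adjusted p = 0.0210). Without STAM_treated 3, which also enters the estimate of the spread, it was called (log2 1.23, edgeR adjusted p = 0.0139). In STAM_treated mice Fabp4 was at 89.6, 35.5, 22.3 and 88.0 CPM, with an SD of 59.4% of the mean, the widest relative spread of any member. All 4 exceeded the naive mice, with a 5.23-fold increase (log2 2.39, SE 0.40, edgeR adjusted p = 0.00246) that was called in all 12 fits that left out 1 mouse.

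Slc27a2 (FATP2) and Slc27a5 (FATP5), the liver's fatty acid transport proteins with acyl-CoA synthetase activity, were not called in any comparison of all 12 mice in edgeR. DESeq2 on the same mice called Slc27a2 lower in STAM_vehicle (DESeq2 adjusted p = 0.0143) and in STAM_treated mice (DESeq2 adjusted p = 0.0175), and Slc27a5 lower in STAM_treated mice (log2 -0.62, DESeq2 adjusted p = 0.0237), each against naive mice. Slc27a2 (ENSMUSG00000027359, chr2:126552407-126588243, plus strand) was at 2323, 2444, 3024 and 2350.3 CPM in naive mice and at 1923, 1662, 1432 and 1778 CPM in STAM_vehicle mice. Every STAM_vehicle mouse was below the naive range, yet the difference did not pass the threshold (log2 -0.58, SE 0.21, edgeR adjusted p = 0.123). Without STAM_treated 3 it was called (log2 -0.60, edgeR adjusted p = 0.0117). STAM_treated mice had 1722, 2102, 1314 and 1872 CPM, also below every naive mouse (log2 -0.53, SE 0.21, edgeR adjusted p = 0.103). Exons of Gm26697 on the opposite strand overlap those of Slc27a2 and had 18 to 64 counts per mouse.

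Slc27a5, which also conjugates bile acids with coenzyme A (ENSMUSG00000030382, chr7:12988346-12998192, minus strand), was at 916, 903, 1085 and 914 CPM in naive mice. It was at 852, 895, 685 and 861 CPM in STAM_vehicle mice, all under the naive range, with STAM_vehicle 3 the lowest (log2 -0.21, SE 0.21, edgeR adjusted p = 0.595). STAM_treated mice had 594, 796, 412 and 734 CPM, with STAM_treated 3 the lowest (log2 -0.59, SE 0.21, edgeR adjusted p = 0.0733 against naive mice). Leaving out that library gave log2 -0.44 and a call, at an edgeR adjusted p of 0.0437. Leaving out STAM_treated 2, the highest of the 4, gave a call as well, at an edgeR adjusted p of 0.0369.

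Against naive mice, 7 of the 9 genes were called in STAM_treated livers in edgeR. Pparg, Cd36, Mogat1, Vldlr and Fabp4 were higher and Fabp1 and Fabp2 lower, while Slc27a2 and Slc27a5 did not pass. DESeq2 called all 9, 5 higher and 4 lower, among 3364 called of 20379 genes tested. Among all genes tested in edgeR, 15.1% were called, 9.88% higher and 5.25% lower. The median of the 9 log2 fold changes was 0.85, beside 0.061 over the 16823 genes, and 8 of the 9 genes did not overlap between the groups, beside 19.8% of all genes. This comparison uses the same naive mice as the previous one, so its values stand beside those above and are no second sample of healthy liver.

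Relative to STAM_vehicle, I-BET151 treatment gave 0 of 9 genes called at an adjusted p of at most 0.1 in edgeR, and 0 in DESeq2. limma-voom with sample weights, in which STAM_treated 3 had a weight of 0.0749, called 2, Fabp4 (log2 1.53, limma adjusted p = 0.00943) and Vldlr (0.94, limma adjusted p = 0.0920). The limma-voom fit called 1205 of 16823 genes in this comparison, and DESeq2 called 268 of 18086. At an unadjusted p under 0.05, 2 of the 9 genes passed in edgeR, Fabp4 and Fabp2, beside 8.68% of all genes. Over all genes tested in edgeR, 0.351% were called, 0.0951% higher and 0.256% lower. The groups overlapped for all 9 genes, whereas they did not for 5.04% of all genes, and the members' median log2 difference was 0.045 beside 0.024 over all genes. For Cd36 the overlap rested on STAM_treated 3, at 79.9 CPM, as the other treated mice were all above the STAM_vehicle range.

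**Figure D3:**
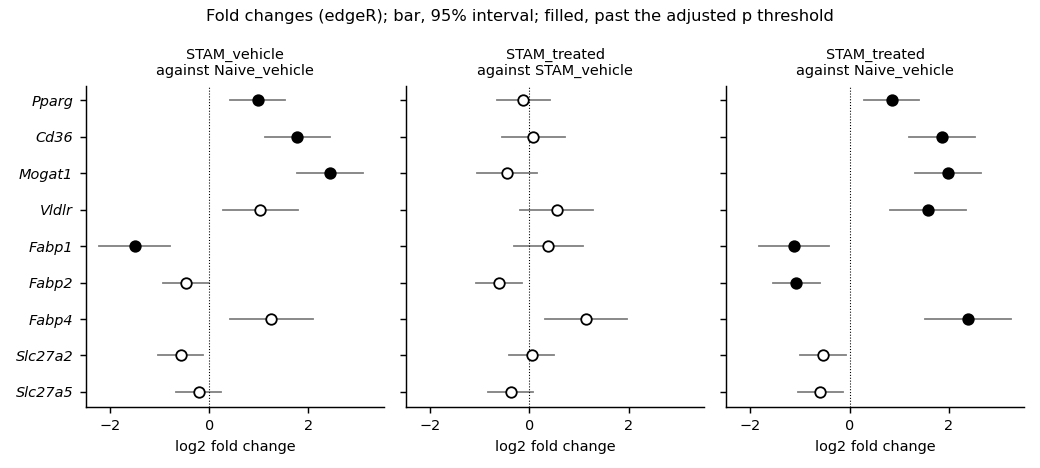
Log2 fold change of each gene (x axis) in the 3 comparisons, with its 95% interval as a bar and filled points for genes past the threshold of that comparison (edgeR). The middle panel has no filled point, and its intervals for Fabp4 and Fabp2 lie to 1 side of 0 before adjustment.

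Fabp4 had the largest difference with treatment. It was 2.20-fold higher than in STAM_vehicle mice (log2 1.14, 95% interval 0.31 to 1.96, edgeR adjusted p = 0.384), with 2 STAM_treated mice above the STAM_vehicle range and 2 within it. Without STAM_treated 3 the difference was log2 1.42 and passed the threshold of 0.1 (edgeR adjusted p = 0.0579). DESeq2 without that library, a fit chosen after seeing the data, also called Fabp4 higher (DESeq2 adjusted p = 0.000921). Fabp2 was lower (log2 -0.61, 95% interval -1.08 to -0.15, edgeR adjusted p = 0.402), with 2 mice within the STAM_vehicle range and 2 below it. The difference was log2 -0.52 without STAM_treated 3 (edgeR adjusted p = 0.253).

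The intervals of the other 7 genes included 0 and left room for sizeable differences. For Vldlr the log2 difference was 0.55 (95% interval -0.19 to 1.29), and for Mogat1 it was -0.45 (-1.06 to 0.15). Slc27a5 differed by log2 -0.38 (-0.83 to 0.076) and Fabp1 by 0.38 (-0.32 to 1.08). For Pparg, Cd36 and Slc27a2 the estimates were nearest to 0. Pparg differed by log2 -0.12 (-0.66 to 0.42), but by 0.12 without STAM_treated 3. Cd36 differed by log2 0.082 (-0.56 to 0.72), but by 0.37 without that library (edgeR adjusted p = 0.204). Slc27a2 differed by log2 0.045 (-0.41 to 0.50). The intervals are those of 4 mice per group and include the spread that STAM_treated 3 adds.

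**Figure D4:**
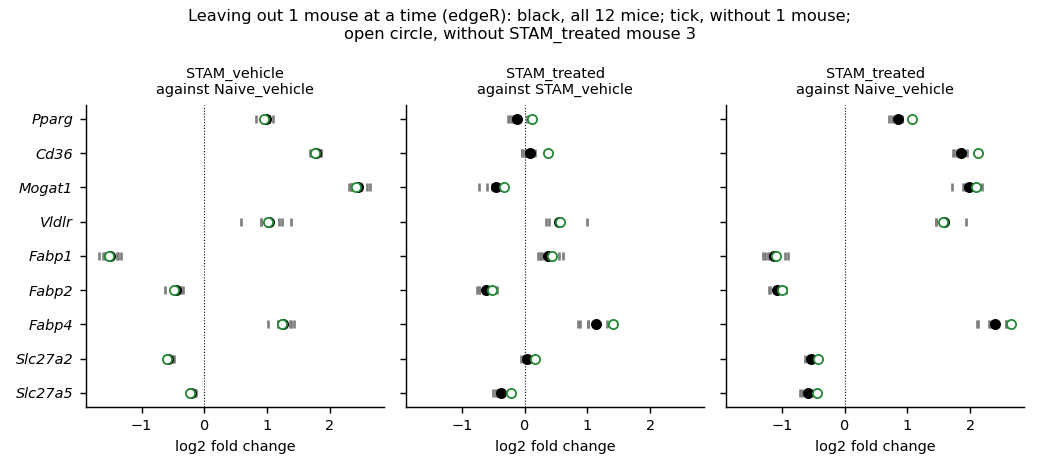
Log2 fold change of each gene with all 12 mice (black), with 1 mouse left out at a time (ticks), and without the library labelled STAM_treated 3 (open circles), from edgeR. In the comparison of STAM_treated with STAM_vehicle, leaving out that library moved Pparg from -0.12 to 0.12, Cd36 from 0.082 to 0.37 and Fabp4 from 1.14 to 1.42.

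Sequencing lanes, as named for the deposited libraries, were not balanced over the groups. Naive_vehicle and STAM_vehicle shared only lane 2, with 1 mouse each. In that pair the log2 difference (STAM_vehicle minus Naive_vehicle) was 0.62 for Pparg, 1.91 for Cd36, 2.13 for Mogat1 and -0.87 for Fabp1, the direction of the calls. STAM_treated and Naive_vehicle shared lanes 2 and 5. There Cd36 was higher by log2 2.30 and 2.43, Fabp4 by 1.93 and 2.54, Vldlr by 1.61 and 2.16, Mogat1 by 1.80 and 2.92 and Pparg by 0.92 and 0.95, while Fabp1 was lower by 0.53 and 1.77 and Fabp2 by 0.56 and 1.47. STAM_treated and STAM_vehicle shared 3 lanes. The difference was below 0 in all 3 for Fabp2 (log2 -1.31 to -0.32), Mogat1 (-1.12 to -0.33) and Slc27a5 (-0.73 to -0.23), and had both signs for Fabp4 (-0.81 to 2.21), Cd36 (-1.62 to 0.52) and Pparg (-1.54 to 0.33). STAM_treated 3 was the treated mouse of the lane 7 pair, which gave every value below 0 for Fabp4, Cd36 and Pparg. In lanes 2 and 6 Fabp4 differed by log2 1.60 and 2.21 and Cd36 by 0.52 and 0.18. Pparg differed by log2 0.33 and 0.12 there. With lane as a covariate in edgeR, which left 4 residual degrees of freedom for 6 lanes and 3 groups, 0 of the 9 genes were called in any comparison, and 4, 2 and 5 had an unadjusted p under 0.05 in STAM_vehicle against naive, STAM_treated against STAM_vehicle and STAM_treated against naive mice. In that fit 7.72%, 8.83% and 12.2% of all genes did. The estimates against naive mice with lane included kept their direction for the called genes, with Cd36 at log2 2.45 (edgeR adjusted p = 0.155) and Mogat1 at 2.97 (edgeR adjusted p = 0.0643) in STAM_vehicle mice.

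The macrophage, adipocyte and hepatocyte markers are given beside these genes because cells other than hepatocytes express Cd36, Pparg and Fabp4. Of 10 macrophage markers, 6 rose in STAM_vehicle mice (Gpnmb, Trem2, Cd68, Clec4f, Marco and Adgre1) and 0 fell, and their summed level was 348 to 662 CPM against 204 to 295 CPM in naive mice. Of the 10, 6 rose in STAM_treated mice relative to naive, with Csf1r in the place of Adgre1, and the sums were 271 to 598 CPM. Called higher than in naive mice were 5.72% of all genes in STAM_vehicle and 9.88% in STAM_treated mice. Between STAM_treated and STAM_vehicle 0 of 10 were called, at an unadjusted p under 0.05 also 0 in edgeR. Of 10 endothelial markers, 0 were called in any comparison in edgeR. An unadjusted p under 0.05 was found for 1, 0 and 1 of them, beside 22.3%, 8.68% and 32.6% of all genes. Their sums overlapped, at 396 to 609 CPM over all mice. Among 8 adipocyte markers, of which 3 were tested, Lep was at 0 in every mouse, the highest values of Adipoq and Plin1 were 0.212 and 0.143 CPM, and Cfd and Cidea rose in both STAM groups relative to naive mice. Cfd and Cidea also stand in the list of PPAR-gamma targets below, so the same values appear in both places. In STAM_treated against STAM_vehicle mice Cfd was at log2 -1.42 (edgeR unadjusted p = 0.033) and Cidea at -1.35 (edgeR unadjusted p = 0.011), and neither was called after adjustment. Their sum, mostly Lipe, was 21.2 to 24.2 CPM in naive, 24.3 to 37.5 CPM in STAM_vehicle and 23.3 to 36.6 CPM in STAM_treated mice. Of 10 hepatocyte markers, 0 were called in any comparison in edgeR, with 1, 0 and 3 at an unadjusted p under 0.05, beside 22.3%, 8.68% and 32.6% of all genes. Their sums were 120599 to 146480 CPM in naive mice and 69684 to 93610 CPM in STAM_vehicle mice, with no overlap. In that comparison 9 of the 10 estimates were below 0, as was that of Fabp1, and their median log2 difference was -0.50 beside 0.0089 over all genes. The part of these cell markers in the values of the 9 genes was not tested.

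The relatives of these genes in transport and binding changed unevenly. Of 16, 11 were tested. In STAM_vehicle mice Fabp3, the heart-type carrier, rose from 0.0878 ± 0.0442 to 1.12 ± 1.17 CPM (SD, n = 4 each, log2 3.61, edgeR adjusted p = 0.0108), and Fabp7, the brain-type carrier, rose from 2.20 ± 0.482 to 4.06 ± 0.798 CPM (log2 0.88, edgeR adjusted p = 0.0398). Dbi, the acyl-CoA binding protein, fell from 336 ± 20.3 to 148 ± 19.9 CPM (log2 -1.18, edgeR adjusted p = 0.00605). The naive level of Fabp3 rests on a few counts, so its fold changes against naive mice are imprecise. The list's median log2 fold change was -0.036. In STAM_treated mice relative to naive, 4 rose and 1 fell, among them Fabp3 (log2 4.14), Dbi (-1.05), Fabp7 (0.90) and Cav1, the caveolin of membrane caveolae (1.02). Between STAM_treated and STAM_vehicle, 0 of the 11 were called.

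Fatty acid activation, the coupling of fatty acids to coenzyme A, gave 2 calls of 10 tested genes in STAM_vehicle mice. Acsl5, a long-chain acyl-CoA synthetase, fell from 355 ± 58.3 to 200.3 ± 15.7 CPM (log2 -0.83, edgeR adjusted p = 0.0347), and Acsbg1 rose from 0.138 ± 0.0659 to 0.472 ± 0.138 CPM (log2 1.73, edgeR adjusted p = 0.0234). The naive level of Acsbg1 also rests on a few counts, so its fold change is imprecise. The list median was 0.14. Acsl5 (log2 -0.90) and the acetyl-CoA synthetase Acss2 (-0.62) were lower in STAM_treated mice than in naive ones. With treatment relative to STAM_vehicle, 0 of 10 were called.

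Among 13 tested genes of lipoprotein receptors and lipases, Lpl, the lipase that frees fatty acids from circulating triglyceride, rose from 16.3 ± 3.26 to 43.7 ± 15.3 CPM in STAM_vehicle mice (log2 1.42, edgeR adjusted p = 0.0444). Lipc, the hepatic lipase, fell from 131 ± 17.4 to 79.1 ± 11.9 CPM (log2 -0.73, edgeR adjusted p = 0.0347). Lpl (log2 1.67) and Lipc (-1.36) were called the same way in STAM_treated mice against naive mice, along with lower Sdc1 (-0.76).

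Between STAM_treated and STAM_vehicle, 2 genes of the 6 lists were called, both lower with treatment. Among them was Ppargc1a, the PPAR coactivator PGC-1 alpha, at 9.39 ± 2.51 CPM in STAM_treated and 26.7 ± 9.15 CPM in STAM_vehicle mice (log2 -1.51, SE 0.27, edgeR adjusted p = 0.0485). It was also lower in STAM_treated than in naive mice (log2 -1.42, edgeR adjusted p = 0.00468), as were Nr0b2 (-1.87), Klf15 (-0.88) and Ppara (-0.76). Ppargc1a was not called when STAM_vehicle 4 or STAM_treated 1 was left out, and no other gene of the lists was either in edgeR. Without STAM_treated 3, 4 genes of the 6 lists were called between these groups. Of the 18 PPAR and RXR receptors and coregulators tested, Nr0b2, the corepressor SHP, was the only one called in STAM_vehicle mice, falling from 47.1 ± 9.66 to 20.1 ± 5.43 CPM (log2 -1.23, edgeR adjusted p = 0.0328). The list medians were log2 -0.12, -0.019 and -0.10 for STAM_vehicle against naive, STAM_treated against STAM_vehicle and STAM_treated against naive.

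Of 20 tested genes known as PPAR-gamma targets, 5 rose and 1 fell in STAM_vehicle mice, with a list median of log2 0.17. The 4 with the smallest p all rose. Aqp7, a glycerol channel, went from 0.0508 ± 0.0152 to 1.88 ± 1.18 CPM (log2 5.11, edgeR adjusted p = 0.000194), and Cidea, a lipid droplet protein, from 0.0798 ± 0.0275 to 2.08 ± 1.09 CPM (log2 4.68, edgeR adjusted p = 0.000686). Ucp2, a mitochondrial carrier, went from 39.1 ± 7.31 to 114 ± 26.3 CPM (log2 1.55, edgeR adjusted p = 0.000873), and Cfd, the adipocyte protease adipsin, from 0.114 ± 0.145 to 5.26 ± 3.32 CPM (log2 5.52, edgeR adjusted p = 0.00155). The naive levels of Aqp7, Cidea and Cfd rest on a few counts, so these fold changes are imprecise. Cidea and Cfd are also among the adipocyte markers above. The other gene of this list that rose, Lpl, is the same call as that given above among the lipases. In STAM_treated mice against naive mice 5 rose and 3 fell, with Aqp7 (log2 4.82), Ucp2 (1.60), Cidea (3.33) and Cfd (4.10) the 4 with the smallest p. With treatment relative to STAM_vehicle, 0 of 20 were called and the median was -0.11.

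Triglyceride synthesis gave 2 calls of 15 tested genes in STAM_vehicle mice, both higher. Mogat2, the paralogue of Mogat1, rose from 0.296 ± 0.179 to 1.39 ± 0.391 CPM (log2 2.21, edgeR adjusted p = 0.00835), and Gpat3, a glycerol-3-phosphate acyltransferase, from 11.1 ± 1.75 to 18.0 ± 4.82 CPM (log2 0.69, edgeR adjusted p = 0.0316). In STAM_treated mice against naive mice 3 were higher and 3 lower. The 4 with the smallest p were Mogat2 (log2 2.74), Gpat3 (0.99) and the lipin gene Lpin3 (0.88), which were higher, and Gpam (-0.68), the mitochondrial acyltransferase, which was lower. None of the 15 was called with treatment relative to STAM_vehicle in edgeR. Over the 6 lists, 15 genes were called in STAM_vehicle against naive mice, 2 in STAM_treated against STAM_vehicle mice and 28 in STAM_treated against naive mice, of 84 tested. At an unadjusted p under 0.05 in edgeR there were 31, 9 and 42, beside 22.3%, 8.68% and 32.6% of all genes.

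**Figure D5:**
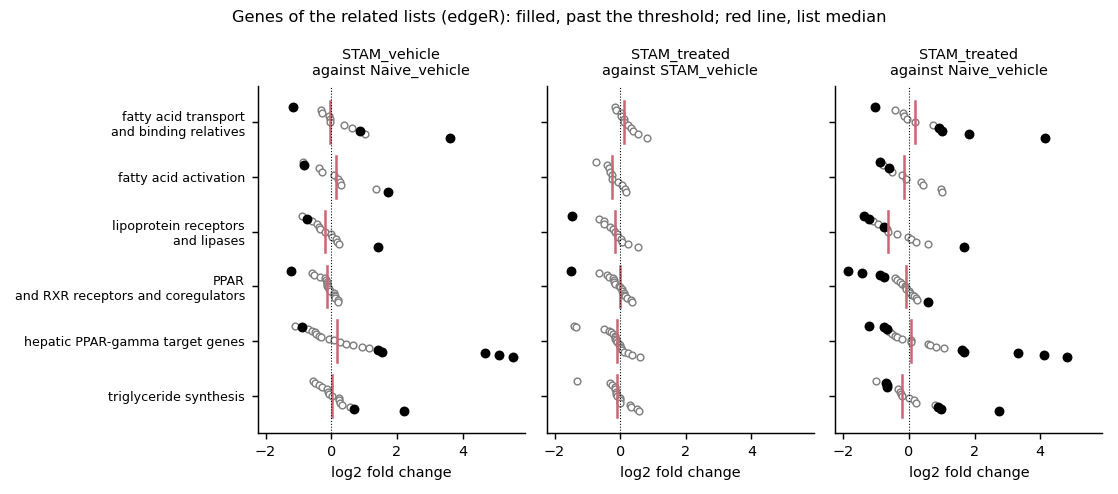
Log2 fold change (x axis) of every tested gene of the 6 related lists in the 3 comparisons (edgeR), filled where past the threshold, with the list median as a red line. The medians lie between log2 -0.65 and 0.18 over the 3 panels, and the middle panel has 2 filled points, both below 0.

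For each of the 9 genes, the 3 other genes with the most similar pattern over the 12 mice were taken by Pearson's r of log2 CPM, as a description. The mice share the group differences given above, so much of each r reflects the groups. Pparg was closest to Plin3, Tceal8 and Cenpm (r = 0.956 to 0.961), and Cd36 to Tceal8, Igf2bp3 and Dhrs9 (0.966 to 0.978). Mogat1 was closest to Insyn1, Slc7a11 and Pgd (0.949 to 0.979) and Vldlr to Tyro3, Trib3 and Areg (0.922 to 0.956). Fabp1 was closest to Siah2, Ss18 and Pde8a (0.923 to 0.949), Fabp2 to Bdh1, Gpd2 and Dhrs1 (0.942 to 0.950) and Fabp4 to AI506816, Prtn3 and Flot1 (0.964 to 0.972). Slc27a2 was closest to Slc17a5, Chn2 and Acot12 (0.959 to 0.969), and Slc27a5 to Cps1, Slc25a15 and Atl2 (0.974 to 0.978). Without STAM_treated 3, 8 of these 27 pairings remained, including Insyn1 and Slc7a11 for Mogat1 and Tyro3 and Trib3 for Vldlr.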

How the data were processed

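Polyadenylated liver RNA of 12 mice was sequenced as stranded paired-end libraries. The authors aligned the reads to mm10 with STAR 2.5.1b, counted uniquely mapped reads per gene, and deposited whole-number counts for each mouse without normalization. For the counting, the study's methods name htseq-count, whereas the names of the deposited tables point to featureCounts. The annotation release and strand setting of the counting are not given in the sources used here. Symbols and positions came from GENCODE M21 on GRCm38, in which 47310 of 47729 identifiers matched.

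All 12 libraries entered a single fit in R 4.3.3 with edgeR 4.0.16 (TMM, filterByExpr with a minimum count of 10, quasi-likelihood test, Benjamini-Hochberg adjustment over all genes tested). Calls used an adjusted p of at most 0.05 for STAM_vehicle against naive mice and 0.1 for treatment, the study's thresholds, and 0.05, set here, for STAM_treated against naive mice. The standard error is the log2 fold change divided by the square root of F. CPM used TMM-scaled totals, with a prior count of 2 for log2 values. DESeq2 1.42.0, limma 3.58.1 (voom with sample weights), other filters and scalings, lane, replicate number and each mouse left out were alternatives. The fits were tested on simulated counts. Figures and promoter searches used Python 3.11.15.

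The 9 genes and the lists were chosen with earlier results of these data known. Besides the 9 genes, at most 4 called genes per list and comparison with the smallest p, and the 3 genes most like each member, were named. Marker genes were named in addition. The values of 1 list gene are not reported here. Counts differed between libraries by more than sampling noise, so none was taken for a repeat deposit. Replicates were separate mice, and depth per mouse limits only the low genes such as Mogat1, Vldlr and Cidea.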

Additional observations from a re-analysis of the deposited data

Results flagged for a closer look

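Of the 27 sets of 4 values (9 genes in 3 groups), 2 held a mouse far from the other 3, by Dixon's test on the gap to the nearest value as a share of the range. Chance flags about 1 in 20 sets. Cd36 in STAM_treated mouse 3 was the lowest of its group at 79.9 CPM, with the nearest mouse at 248 CPM, a gap of 0.851 of the range. This is the library that stood apart in the make-up of its counts, and its part in the Cd36 value was not tested. Slc27a5 in Naive_vehicle mouse 3 was the highest of its group at 1085 CPM, with the nearest mouse at 916 CPM, a gap of 0.930 of the range. With all 12 mice Slc27a5 was not called in any comparison in edgeR, and DESeq2 called it lower in STAM_treated than in naive mice (log2 -0.62, DESeq2 adjusted p = 0.0237).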

How the results depend on the processing

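With all 12 mice in edgeR, 1195 genes (4 of the 9, and 15 of the lists) were called in STAM_vehicle against naive mice, 59 (0 and 2) in STAM_treated against STAM_vehicle mice, and 2546 (7 and 28) in STAM_treated against naive mice. DESeq2 called 1891 genes, 7 of the 9 among them, in the first comparison, 268 genes and 0 of the 9 in the second, and 3364 genes and 9 of the 9 in the third. Without the low-count filter the second had 101 genes, and with at least 10 counts in every library the first had 9 list genes. Fits of only the 2 groups compared gave 3879 genes and 32 list genes in the first, 8 and 0 in the second, and 1262 genes in the third. limma-voom with sample weights gave 5672 genes, 7 of the 9 and 35 list genes in the first, 1205, 2 and 11 in the second, and 4880 genes in the third. Pparg was then at log2 0.26 in the second.

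The replicate numbers did not pair the mice (mean correlation of deviations between same-numbered mice -0.070, -0.062 and -0.15), and with the number as a replicate block 742 genes and 9 list genes were called in the first comparison, 10 and 0 in the second and 1573 genes in the third. With sequencing lane as a covariate 37 genes, 0 of the 9 and 3 list genes were called in the first, 0 genes and 0 list genes in the second, and 85 genes, 0 of the 9 and 4 list genes in the third. Lane also put Slc27a5 at log2 0.14 in the first and Cd36 at -0.27 and Slc27a2 at -0.050 in the second.

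Chosen after seeing the data, scaling by library totals alone left 6 genes and 0 list genes in the second comparison and put Slc27a5 at log2 0.063 in the first. DESeq2 without STAM_treated mouse 3, also chosen after seeing the data, called 4369 genes, 7 of the 9 and 30 list genes in the first, 1287, 1 and 9 in the second, and 4092 genes in the third, with Pparg at log2 0.12 in the second. The 1 of the 9 called in the second was Fabp4.

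Leaving out 1 mouse at a time gave 546 to 3779 genes, 3 to 6 of the 9 and 7 to 30 list genes in the first comparison, 13 to 403, 0 to 1 and 0 to 4 in the second, and 1292 to 3731, 5 to 8 and 19 to 38 in the third. The highest counts in the first and second, and of the 9 genes in the third, came without STAM_treated 3. The second comparison then spanned log2 -0.26 to 0.12 for Pparg, -0.046 to 0.37 for Cd36 and -0.056 to 0.17 for Slc27a2. The cause of these changes was not tested. Of the 594 values of single genes under an alternative, 514 kept their direction and side of the threshold, 40 lost a call, 28 gained one and 12 changed sign. Depth limits Mogat1 in naive mice, at 20 to 40 counts.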
